A study of Mus musculus with 18 samples.

Results

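Arginine and nitric oxide metabolism was examined in bone marrow-derived macrophages (BMDMs) through 9 genes, Slc7a1, Slc7a2, Nos2, Gch1, Ass1, Asl, Arg1, Arg2 and Odc1. They were taken by gene symbol from a table of 25926 genes, and all 9 were found. RNA was sequenced from 18 samples in 3 groups of 6. All groups shared the same coculture: BMDMs of C57BL/6J mice, grown for 7 days with 50 ng/mL M-CSF, on a Transwell insert (0.4 μm pores) over renal tubular epithelial cells (TECs) of wild-type mice. In NC the BMDMs received PBS and the TECs no crystals. In COM the BMDMs again received PBS, while the TECs had met crystals of calcium oxalate monohydrate (COM) at 100 μg/mL for 24 h. In COM+Met the BMDMs above crystal-exposed TECs received 5 mM Met for 24 h, an abbreviation that the labels do not spell out. No sample shows BMDMs without TECs beside them. Separate mice or cultures are not named in the labels, and the p-values below therefore cover the spread among the 6 samples of a group, part of which may be technical.

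Arginine enters cells through cationic amino acid transporters and is then used by competing enzymes. Inducible nitric oxide synthase turns it into nitric oxide and citrulline with tetrahydrobiopterin as a cofactor, and citrulline can be rebuilt into arginine. The arginases split arginine into ornithine and urea, and ornithine feeds the synthesis of polyamines and proline. In mouse macrophages, inducible nitric oxide synthase (iNOS) is widely used as a marker of pro-inflammatory (M1) activation and arginase 1 (Arg-1) as a marker of alternative (M2) activation.

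All values are FPKM, fragments scaled to gene length and to the total of each sample, whose sums ran from 380731 to 449186. Differences between groups are given as differences of mean log2(FPKM + 1), which understate the change of low genes, and p-values come from limma with Benjamini-Hochberg adjustment over all genes tested. All 10 macrophage markers examined were present, led by Lyz2, while 13 of 15 markers of tubular epithelium stayed below 1 FPKM in every sample. Samples of a group were not equally alike: over 10751 genes, correlations within COM+Met were 0.989 to 0.995, while COM-1 to COM-3 correlated with COM-4 to COM-6 at only 0.888 to 0.951, and NC-1 to NC-4 with NC-5 and NC-6 at only 0.938 to 0.962. COM-6 in turn correlated with COM-4 and COM-5 at only 0.93 to 0.935, so COM-4 to COM-6 were not uniform among themselves. The subsets of NC and COM were seen in the values and have no label of their own. Differences between subsets are therefore described below without a test. Fits that keep only a subset are given as alternatives. Their p-values rest on samples chosen after the values were seen, so a pass or a miss in them is a description. In bulk RNA, fewer cells of a type and less RNA per cell cannot be told apart.

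In macrophages above crystal-exposed TECs, the arginine transporter gene Slc7a2 was 7.15 times and the citrulline-recycling gene Ass1 3.06 times its mean FPKM in NC, Nos2 and its cofactor gene Gch1 were higher too, and Odc1, which leads from ornithine to polyamines, was 0.355 times its mean in NC. Of the 9 genes, 4 (Nos2, Slc7a2, Ass1 and Gch1) passed as higher in COM than in NC, against 12.7% of the 10900 genes tested. Another 4 (Odc1, Arg1, Asl and Slc7a1) passed as lower, against 40.6% of all genes, so that the share of lower genes was close to the background, and Arg2 did not pass. Only genes averaging 1 FPKM or more over both groups were tested. Arg1 reached that only through NC (mean 1.89 FPKM, 0.671 in COM), so it could hardly have been tested had NC been as low. A change of at least 2-fold that also passed was seen in 5 of the 9, against 17.7% of all genes. The COM and NC values did not overlap in 5 of the 9, against 38.2% of all genes. The median difference of all genes tested was −0.27, and the differences below are given with their value relative to that median where the direction could depend on it. With median-of-ratios size factors the split of all called genes moved from 653 higher and 1273 lower to 859 higher and 834 lower, and the direction of none of the 8 genes that passed changed.

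**Figure D1:**
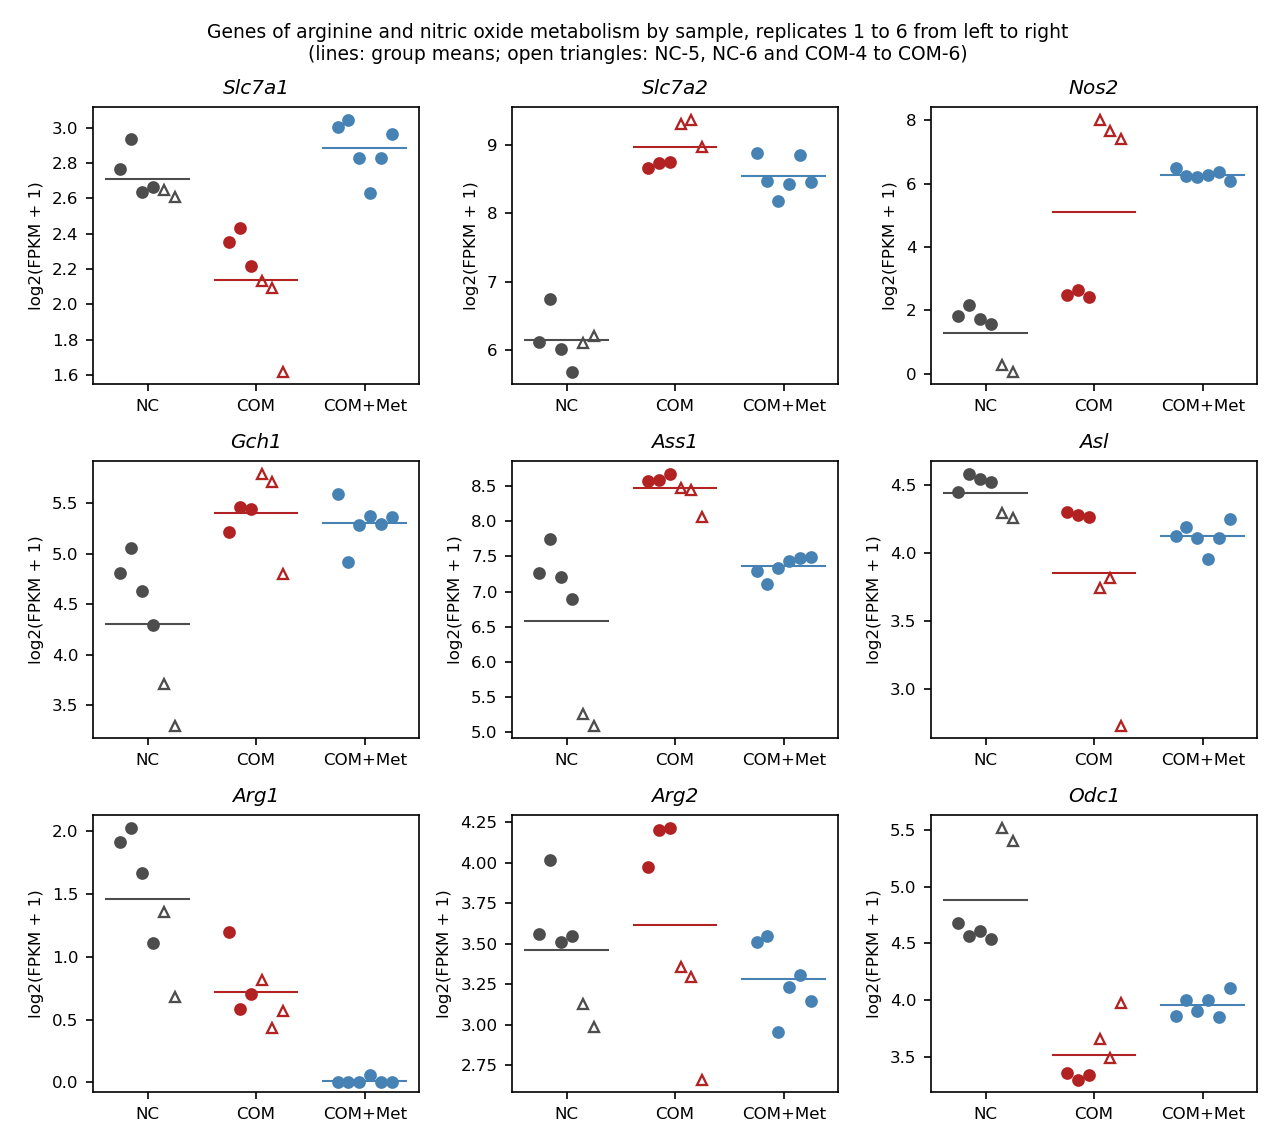
FPKM of the 9 genes on a log2(FPKM + 1) axis in each NC, COM and COM+Met sample, with a line at each group mean and open triangles for NC-5, NC-6 and COM-4 to COM-6. Slc7a2 and Ass1 in COM lie above every NC sample, Nos2 in COM splits into 3 values of 4.42 to 5.2 FPKM and 3 of 170 to 260 FPKM, and Arg1 is listed at 0 in 5 of 6 COM+Met samples.

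Slc7a2 encodes the cationic amino acid transporter CAT2, which carries arginine into activated macrophages (GRCm38, chr8:40862396-40922308, plus strand), and its exons overlap those of Gm26584 on the other strand. It measured 50.2 FPKM in the lowest NC sample, 67.9 at the median and 106 in the highest. The COM samples ran from 406 to 662 FPKM with a median of 466, and the COM+Met samples from 290 to 469 FPKM with a median of 352. Every COM and every COM+Met sample was thus above every NC sample, while COM and COM+Met overlapped. Its mean was 510 ± 112 FPKM in COM and 71.4 ± 18.6 in NC (SD, n = 6 each), a ratio of 7.15, and the difference was 2.83 (SE 0.18, 95% interval 2.43 to 3.22, adjusted p = 1.53e-07 by limma). This was the smallest adjusted p among the 9 genes, and the call held under every alternative tried.

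Slc7a1 encodes CAT1, the cationic amino acid transporter found in most cell types (chr5:148327410-148399904, minus strand). It ran from 5.09 to 6.66 FPKM in NC, from 2.07 to 4.39 in COM and from 5.2 to 7.26 in COM+Met. The COM samples were below every sample of the other groups, and NC and COM+Met overlapped. The mean was 3.48 ± 0.812 FPKM in COM and 5.57 ± 0.59 in NC (SD, n = 6 each). The difference of −0.57 (SE 0.13, adjusted p = 0.00268) was −0.30 relative to the median of all genes, and it was −0.25 with quantile normalisation (adjusted p = 0.0332). The 2 transporters therefore went in opposite directions: within a sample, Slc7a2 exceeded Slc7a1 by 9.38 to 15.9 times in NC and by 97.1 to 241 times in COM.

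The promoter of Slc7a1 is shown because this gene, unlike Slc7a2, was lower in COM and higher again in COM+Met. RefSeq's promoter table (GRCm38.p6) held 5 windows for 4 of the 9 genes, Slc7a1, Gch1, Ass1 and Odc1. The 250 bases before the upstream of its 2 annotated starts, chr5:148399905-148400154 on the minus strand, are printed 5′ to 3′.
Slc7a1: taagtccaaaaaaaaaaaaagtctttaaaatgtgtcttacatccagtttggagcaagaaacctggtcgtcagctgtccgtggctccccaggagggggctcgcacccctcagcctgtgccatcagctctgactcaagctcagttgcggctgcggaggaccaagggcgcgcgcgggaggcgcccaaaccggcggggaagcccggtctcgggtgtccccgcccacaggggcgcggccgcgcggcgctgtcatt
The windows were searched on both strands for 7 motifs, with the percentage of 32851 mouse windows of the same length that hold each: NF-kappa B (GGANNTTCC, 3.59%), IRF (GAAANNGAA, 7.13%), GAS (TTCNNNGAA, 7.02%), E-box (CACGTG, 6.02%), CRE (TGACGTCA, 1.55%), C/EBP (TTGCNNAA, 9.56%) and CARE (TGATGNAA, 3.45%). None of these letters occurred in the stretch above, whereas the window of the other Slc7a1 start held a GAS match 146 to 138 bases before that start. The Odc1 window held no match.

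Nos2 encodes the inducible nitric oxide synthase (chr11:78920787-78960254, plus strand). It measured 0.0442 FPKM in the lowest NC sample, 2.14 at the median and 3.55 in the highest. In COM-1, COM-2 and COM-3 it measured 4.67, 5.2 and 4.42 FPKM, whereas COM-4 to COM-6 gave 260, 201 and 170 FPKM. All COM samples were above all NC samples, but the first 3 only slightly. Mean Nos2 was 108 ± 116 FPKM in COM and 1.77 ± 1.38 in NC (SD, n = 6 each), so that the SD of COM exceeded its mean. The difference was 3.84 (SE 1.07, 95% interval 1.52 to 6.16, adjusted p = 0.00922), rank 61 from the highest of 10900 genes. It was 1.25 with COM-1 to COM-3 only and 6.43 with COM-4 to COM-6 only, and Nos2 no longer passed with limma's sample weights (1.07, adjusted p = 0.0543) and without NC-5 and NC-6 (3.29, adjusted p = 0.0535).

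Gch1 encodes GTP cyclohydrolase 1, the first and rate-limiting enzyme of tetrahydrobiopterin synthesis (chr14:47153895-47189413, minus strand). It ran from 8.8 to 32.3 FPKM in NC (median 21.2), from 26.9 to 54.5 in COM (median 42.8) and from 29.3 to 47.4 in COM+Met (median 39.2). COM and NC overlapped through COM-6, which lay below NC-1 and NC-2. The mean was 42.5 ± 10.1 FPKM in COM and 20.4 ± 8.99 in NC (SD, n = 6 each). The difference was 1.11 (SE 0.28, 95% interval 0.49 to 1.72, adjusted p = 0.00577), and Gch1 passed under every alternative. It fell short of 2-fold without NC-5 (0.99), without NC-6 (0.905), without both (0.71), with sample weights (0.74) and with a pseudocount of 5 (0.95). Within COM, Gch1 did not follow Nos2: it averaged 40.6 FPKM in COM-1 to COM-3 and 44.3 in COM-4 to COM-6, with overlap. The 250 bases before the Gch1 start (chr14:47189414-47189663, minus strand) are printed because Gch1, like Nos2, passed as higher in COM than in NC. The capitals mark the match to the NF-kappa B letters, 239 to 231 bases before the start.
Gch1: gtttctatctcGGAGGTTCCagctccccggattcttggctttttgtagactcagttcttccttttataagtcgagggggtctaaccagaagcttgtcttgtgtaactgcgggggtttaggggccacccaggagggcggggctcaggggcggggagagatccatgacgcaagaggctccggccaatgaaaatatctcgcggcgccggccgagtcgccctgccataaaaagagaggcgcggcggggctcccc
No other of the 7 motifs matched there.

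Ass1 encodes argininosuccinate synthase, which joins citrulline with aspartate on the way back to arginine (chr2:31470207-31520672, plus strand). It ran from 32.9 to 215 FPKM in NC (median 132), from 266 to 410 in COM (median 368) and from 137 to 180 in COM+Met (median 166). COM lay above every sample of both other groups, and COM+Met lay within the range of NC. The mean was 358 ± 50.1 FPKM in COM and 117 ± 70.9 in NC (SD, n = 6 each), a ratio of 3.06. The difference was 1.90 (SE 0.42, 95% interval 0.99 to 2.8, adjusted p = 0.00227), and it was 1.19 without NC-5 and NC-6. The call held under every alternative. RefSeq places the Ass1 start downstream of the GENCODE start given above, so that the end of its promoter window lies within the GENCODE gene. A site of 30 bases in that window (chr2:31470222-31470251, plus strand) is shown because it holds the only match there, the E-box letters in capitals, 36 to 31 bases before the RefSeq start.
Ass1: cgcgcccgtcccCACGTGtcccaggttcct

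Asl encodes argininosuccinate lyase, the next enzyme, which releases arginine (chr5:130011258-130029247, minus strand). It ran from 18.1 to 23 FPKM in NC, from 5.63 to 18.7 in COM and from 14.5 to 18 in COM+Met. COM-1 to COM-3 lay at 18.2 to 18.7 FPKM, beside the lowest NC samples, and COM-4 to COM-6 lay lower at 12.4, 13.1 and 5.63 FPKM. The mean was 14.4 ± 5.14 FPKM in COM and 20.8 ± 2.04 in NC (SD, n = 6 each). The difference was −0.59 (SE 0.23, adjusted p = 0.0479) and −0.32 relative to the median of all genes. This result was not stable. Asl no longer passed without any one of the NC samples or without COM-4 or COM-5 (differences of −0.62 to −0.56, highest adjusted p = 0.0839), with median-of-ratios size factors (−0.30, adjusted p = 0.186) and with quantile normalisation (−0.37, adjusted p = 0.0959), and without COM-6 the difference was −0.36 (adjusted p = 0.0237). The difference of Asl was −0.16 with COM-1 to COM-3 only (adjusted p = 0.127 by limma) and −1.01 with COM-4 to COM-6 only. It was −0.67 without NC-5 and NC-6 (adjusted p = 0.0714 by limma). The lower Asl thus lay mainly in COM-4 to COM-6. In the main fit Ass1 was higher and Asl lower, and the ratio of Ass1 to Asl within a sample ran from 1.81 to 9.31 in NC and from 20.3 to 47.2 in COM.

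Arg1 encodes the cytosolic arginase (chr10:24915221-24927484, minus strand) and was low throughout. NC-1 to NC-6 gave 2.78, 3.08, 2.18, 1.16, 1.56 and 0.598 FPKM, and COM-1 to COM-6 gave 1.3, 0.501, 0.631, 0.762, 0.349 and 0.483 FPKM. The groups overlapped, since COM-1 lay above NC-4 and NC-6, and COM-3 and COM-4 lay above NC-6. The mean was 0.671 ± 0.339 FPKM in COM and 1.89 ± 0.959 in NC (SD, n = 6 each). The difference of −0.74 (SE 0.22, adjusted p = 0.0132) was −0.47 relative to the median of all genes. It was −0.41 with quantile normalisation (adjusted p = 0.105) and −0.63 with COM-1 to COM-3 only, and passed in neither.

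Arg2 encodes the mitochondrial arginase (chr12:79130777-79156301, plus strand), whose exons overlap those of Vti1b on the other strand, and whether the counting used strand is not stated. It ran from 6.91 to 15.2 FPKM in NC, from 5.32 to 17.6 in COM and from 6.74 to 10.7 in COM+Met, and the groups overlapped throughout. The difference between COM and NC was 0.16 (SE 0.27, 95% interval −0.42 to 0.73, adjusted p = 0.626), and it was −0.04 without NC-5 and NC-6 and −0.35 with COM-4 to COM-6 only. Arg2 passed as higher with COM-1 to COM-3 only (0.67, adjusted p = 0.0179) and with sample weights (0.51, adjusted p = 0.00337). The COM samples were again divided, with 14.7, 17.4 and 17.6 FPKM in COM-1 to COM-3 and 9.26, 8.82 and 5.32 FPKM in COM-4 to COM-6. In every sample Arg2 was above Arg1, by 3.88 to 11.5 times in NC and by 11.0 to 34.7 times in COM.

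Odc1 encodes ornithine decarboxylase, which starts polyamine synthesis from ornithine (chr12:17544794-17551505, plus strand). It ran from 22.2 to 45.0 FPKM in NC (median 24.0), from 8.82 to 14.7 in COM (median 9.72) and from 13.4 to 16.2 in COM+Met (median 14.5). Every sample of both crystal groups was below every NC sample. The mean was 10.6 ± 2.26 FPKM in COM and 29.9 ± 10.4 in NC (SD, n = 6 each). The difference of −1.37 (SE 0.2, 95% interval −1.8 to −0.94, adjusted p = 0.000113) was −1.10 relative to the median of all genes, and the call held under every alternative.

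**Figure D2:**
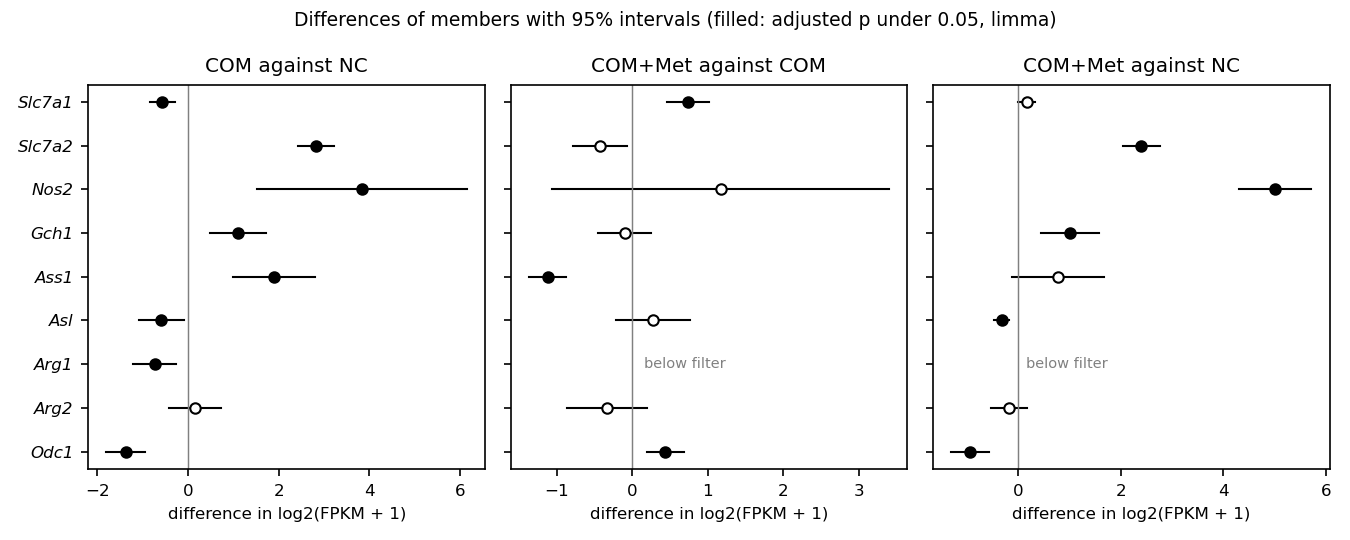
Differences in mean log2(FPKM + 1) of the 9 genes with 95% intervals from limma for COM against NC, COM+Met against COM and COM+Met against NC; filled points passed at an adjusted p under 0.05, and Arg1 was below the filter of 1 FPKM in the comparisons with COM+Met. Nos2 has the widest interval in COM against NC (1.52 to 6.16) and in COM+Met against COM (−1.06 to 3.4), and Ass1 is the only gene that passed as lower in COM+Met than in COM.

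Met in the presence of crystals was addressed by COM+Met against COM, and Ass1 was 0.458 times, Slc7a1 1.84 times and Odc1 1.37 times its mean FPKM in COM. The filter of 1 FPKM kept 8 of the 9 genes, without Arg1. Slc7a1 and Odc1 passed as higher, 2 genes against 5.77% of the 10364 genes tested, and Ass1 passed as lower, 1 gene against 7.58%. Only Ass1 also reached a 2-fold change, against 2.22% of all genes. COM+Met and COM did not overlap in Ass1 and Slc7a1, 2 of the 8, against 11.2% of all genes. The other 5 genes tested did not pass, and the median difference of all genes was 0.003.

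Ass1 averaged 164 ± 15.9 FPKM in COM+Met against 358 ± 50.1 in COM (SD, n = 6 each). The difference of −1.12 (SE 0.12, 95% interval −1.37 to −0.87, adjusted p = 0.000126) ranked 149 from the lowest of 10364 genes. Each COM+Met sample was below each COM sample, whether of COM-1 to COM-3 or of COM-4 to COM-6. Slc7a1 averaged 6.42 ± 0.762 FPKM in COM+Met against 3.48 ± 0.812 in COM, with a difference of 0.74 (SE 0.13, 95% interval 0.46 to 1.02, adjusted p = 0.00291). Its COM+Met samples were above every COM sample. Ass1 passed under all 24 alternatives and Slc7a1 under all 23 in which it was tested, since the filter of 5 FPKM left it out, while the difference of Ass1 fell short of 2-fold with COM-4 to COM-6 only (−0.97). Odc1 was higher by 0.43 (SE 0.11, adjusted p = 0.0244), from 10.6 ± 2.26 to 14.5 ± 1.08 FPKM, and its groups overlapped through COM-6. Odc1 no longer passed without any one of COM-1, COM-2, COM-3, COM+Met-2, COM+Met-4 and COM+Met-6 (differences of 0.39 to 0.425, highest adjusted p = 0.062), and with TPM (0.39, adjusted p = 0.0632), median-of-ratios factors (0.43, adjusted p = 0.0862) or quantile normalisation (0.45, adjusted p = 0.0733).

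Nos2 could not be placed against COM as a whole. The 6 COM+Met samples lay close together at 67.1 to 89.1 FPKM (77.2 ± 7.4, SD), above COM-1 to COM-3 and below COM-4 to COM-6. The mean FPKM in COM+Met was 0.718 times that of COM, while the difference of mean log2 values was positive, 1.17 (SE 1.03, 95% interval −1.06 to 3.4, adjusted p = 0.489). It was 3.76 with COM-1 to COM-3 only and −1.42 with COM-4 to COM-6 only. Slc7a2 averaged 378 ± 71.9 FPKM in COM+Met against 510 ± 112 in COM, a difference of −0.42 (SE 0.16, 95% interval −0.78 to −0.07) whose adjusted p was 0.105, and it was −0.67 with COM-4 to COM-6 only. Gch1 differed by −0.10 (SE 0.16, 95% interval −0.45 to 0.25, adjusted p = 0.73), Arg2 by −0.33 (SE 0.24, 95% interval −0.86 to 0.19, adjusted p = 0.395) and Asl by 0.27 (SE 0.23, 95% interval −0.22 to 0.77, adjusted p = 0.466).

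Arg1 was listed at 0 in 5 of the 6 COM+Met samples and at 0.0438 FPKM in COM+Met-4. Each of these was below every COM and every NC sample. A two-sided exact permutation test of mean log2(FPKM + 1) gave p = 0.00216 against COM and against NC, the smallest p that 924 splits of 12 samples allow. This p was not adjusted, and any gene whose groups do not overlap gets it. Among the genes tested by limma, 11.2% did not overlap between COM+Met and COM, and 57.6% between COM+Met and NC. Non-overlap with NC was thus common. No fold is given, since a listed 0 can be a failed estimate. Of 1186 genes with a median of at least 50 FPKM none was at 0 in any sample, and of 5016 genes with a median of at least 10 FPKM 8 were.

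COM+Met was also compared with NC, which shares its samples with the comparisons above. Nos2, Slc7a2 and Gch1 passed as higher, 3 of the 8 genes tested against 19.3% of 10786 genes, and Odc1 and Asl passed as lower, 2 against 55.9%. The 3 higher genes, 3 of the 8 tested, also reached a 2-fold change, against 19.3% of all genes tested that were called at 2-fold in either direction. Gch1 did so narrowly (1.01) and fell short of it without NC-5 (0.89), NC-6 (0.81), COM+Met-1 (0.95), COM+Met-4 (0.99) or COM+Met-6 (0.995), and without NC-5 and NC-6 together (0.61), with sample weights (0.61), with TPM (0.96) or with a pseudocount of 5 (0.86), while it passed in each. The groups did not overlap in 4 of the 8 genes (Nos2, Slc7a2, Odc1 and Asl), against 57.6% of all genes, a share that is not above the background. With the tight COM+Met values, Nos2 differed by 5.01 (SE 0.33, 95% interval 4.3 to 5.72, adjusted p = 1.9e-08), rank 32 from the highest, and its call held under every alternative. Slc7a2 differed by 2.40 (SE 0.16, adjusted p = 2.7e-08), Gch1 by 1.01 (SE 0.26, adjusted p = 0.00359) and Odc1 by −0.94 (SE 0.17, adjusted p = 0.00026).

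Asl differed by −0.32 (SE 0.07, adjusted p = 0.001), only −0.05 relative to the median of all genes (−0.26), and it no longer passed with median-of-ratios size factors (−0.03, adjusted p = 0.681), quantile normalisation (−0.10, adjusted p = 0.227) and all 18 samples in a single fit (adjusted p = 0.172). Ass1, the gene most clearly lower in COM+Met than in COM, had a difference of 0.78 from NC (SE 0.41, 95% interval −0.12 to 1.68, adjusted p = 0.103). That difference passed without NC-2 (1.02, adjusted p = 0.0325) and with median-of-ratios size factors (1.08, adjusted p = 0.0354), and it was 0.08 without both NC-5 and NC-6. Slc7a1 had a difference of 0.17 from NC (SE 0.08, adjusted p = 0.0605). It passed without NC-2 (0.22, adjusted p = 0.017), without COM+Met-4 (0.22, adjusted p = 0.0135) or with a replicate block (0.17, adjusted p = 0.0328). It also passed with median-of-ratios size factors (0.43, adjusted p = 0.000316) and with quantile normalisation (0.48, adjusted p = 0.000118), so its call depended on the normalisation. Arg2 had a difference of −0.18 (SE 0.16, 95% interval −0.52 to 0.17, adjusted p = 0.331). It was 0.09 with median-of-ratios and 0.10 with quantile normalisation, and it passed as lower without NC-5 and NC-6 (−0.38, adjusted p = 0.0163) and with sample weights (−0.34, adjusted p = 0.0166).

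The order of the levels, which FPKM puts on a per-length scale, changed between groups. By mean FPKM, NC ran Ass1, Slc7a2, Odc1, Asl, Gch1, Arg2, Slc7a1, Arg1 and Nos2 from highest to lowest. Asl (20.8 ± 2.04) and Gch1 (20.4 ± 8.99) did not differ beyond their SD there, nor did Arg1 (1.89 ± 0.959) and Nos2 (1.77 ± 1.38). In COM the order was Slc7a2, Ass1, Nos2, Gch1, Asl, Arg2, Odc1, Slc7a1 and Arg1, in which Asl, Arg2 and Odc1 lay within their SD of each other. COM+Met kept the first 5 places of COM and had Odc1 above Arg2. Odc1 thus went from the third place in NC to the seventh in COM, and Nos2 from the last to the third, a place that rests on COM-4 to COM-6.

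Within COM, COM-4 to COM-6 differed from COM-1 to COM-3 most in Nos2, with means of 210 and 4.77 FPKM, a ratio of 44.1. Its difference in mean log2(FPKM + 1), 5.18, was the highest of 10447 genes. Slc7a2 (599 against 421 FPKM) and Odc1 (12.2 against 9.04 FPKM) were also higher in COM-4 to COM-6, with no overlap. Arg2 (7.8 against 16.6 FPKM), Asl (10.4 against 18.5), Slc7a1 (2.91 against 4.05) and Ass1 (324 against 392) were lower with no overlap, and Gch1 and Arg1 overlapped. Of all 10447 genes, 54.1% did not overlap in this split, and their median difference was −0.28, near that of Ass1 (−0.29) and Slc7a1 (−0.39). The summed FPKM of 10 neutrophil markers moved with it, from 307 to 330 in COM-1 to COM-3 to 34.2 to 67.5 in COM-4 to COM-6, with 3 of the 10 below 1 FPKM in every sample. The 5 endothelial markers summed to 3.11 to 4.44 FPKM and 8.99 to 11.6 FPKM, the 8 fibroblast markers to 11.5 to 36.8 and 4.61 to 17.6. Their part in the split was not tested.

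**Figure D3:**
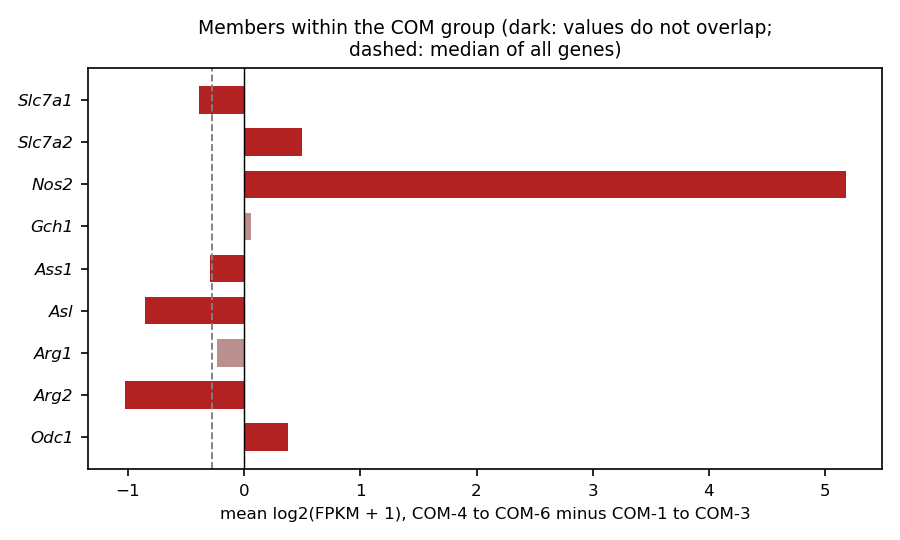
Difference in mean log2(FPKM + 1) between COM-4 to COM-6 and COM-1 to COM-3 for each of the 9 genes, with dark bars where the values of the 3 samples on each side do not overlap and a dashed line at the median of all genes (−0.28). Nos2 stands at 5.18, and the other genes lie between −1.03 (Arg2) and 0.50 (Slc7a2).

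Set against these subsets, COM+Met lay below both for Ass1 and Arg1 and above both for Slc7a1. It lay above COM-1 to COM-3 and below COM-4 to COM-6 for Nos2, and below the first and above the second for Asl. For Odc1 it was above COM-1 to COM-3 and overlapped COM-4 to COM-6, for Arg2 it was below COM-1 to COM-3 and overlapped COM-4 to COM-6, and for Slc7a2 it overlapped COM-1 to COM-3 and was below COM-4 to COM-6. Gch1 overlapped with both. The direction for Nos2, Asl and Arg2 therefore depended on which COM samples stood for the group. The neutrophil markers summed to 395 to 597 FPKM in NC and 19.5 to 45.5 FPKM in COM+Met, and the 8 fibroblast markers to 14.7 to 61.0 and 2.38 to 7.33 FPKM. The 15 tubular markers summed to 10.9 to 18.4 FPKM in NC, almost all of it Cdh1, to 0.558 to 1.5 in COM and to 0.0603 to 0.35 in COM+Met, with Slc22a6, Krt18 and Umod at 0 in every sample. These 3 lists had their lowest values in the group in which Arg1 was listed at 0, but the endothelial and macrophage lists did not. The endothelial markers summed to 4.5 to 6.05 FPKM in NC, 3.11 to 11.6 in COM and 5.0 to 7.5 in COM+Met. The macrophage markers summed to 11293 to 15843 FPKM in NC, 10699 to 14442 in COM and 12448 to 17186 in COM+Met. The part of these lists in the Arg1 values was not tested.

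NC-5 and NC-6 stood apart from NC-1 to NC-4 in most of the 9 genes as well. Nos2 averaged 0.127 FPKM in NC-5 and NC-6 and 2.59 FPKM in NC-1 to NC-4, 20.4 times higher. Ass1 averaged 35.0 against 158 FPKM and Gch1 10.4 against 25.4 FPKM, while Odc1 was higher in NC-5 and NC-6, with 43.2 against 23.2 FPKM. Arg2 and Asl were lower there with no overlap, and Slc7a1, Slc7a2 and Arg1 overlapped. Of 10923 genes, 56.0% did not overlap between these subsets. The genes higher in COM than in NC were thus, except for Slc7a2, lowest in NC-5 and NC-6, and leaving both out brought the difference of Ass1 from 1.90 to 1.19, that of Gch1 from 1.11 to 0.71, and that of Odc1 from −1.37 to −1.08.

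**Figure D4:**
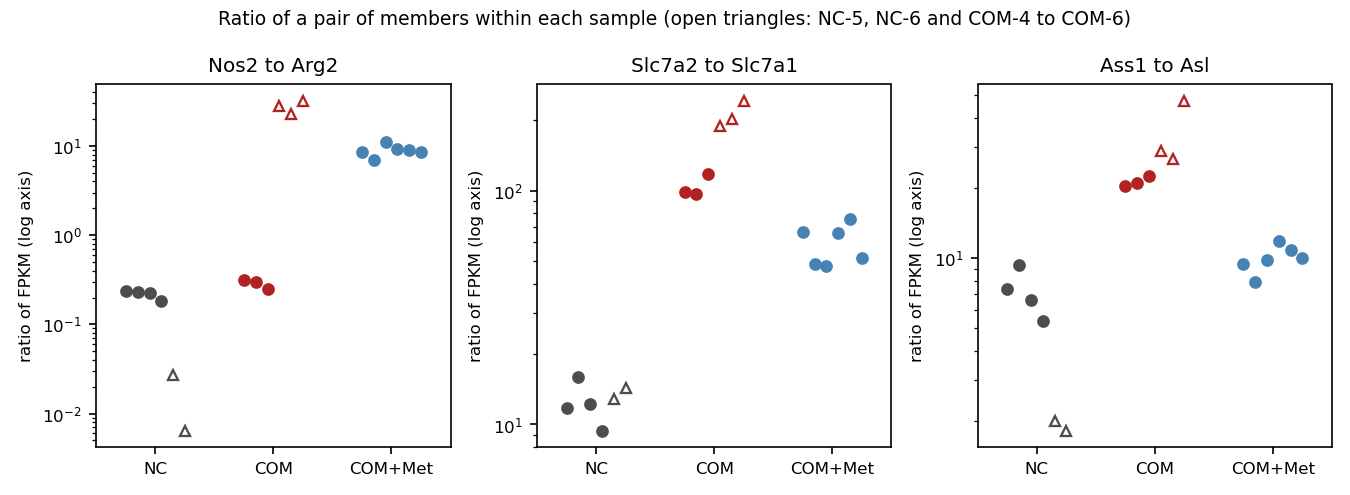
Ratios of FPKM within each sample on log axes for Nos2 to Arg2, Slc7a2 to Slc7a1 and Ass1 to Asl, with open triangles for NC-5, NC-6 and COM-4 to COM-6. Slc7a2 to Slc7a1 is 9.38 to 15.9 in NC, 97.1 to 241 in COM and 47.5 to 76.0 in COM+Met, with no overlap of the groups, while Nos2 to Arg2 in COM-1 to COM-3 (0.251 to 0.318) lies just above NC (0.0064 to 0.236).

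Ratios within a sample put enzymes that compete for arginine side by side. Nos2 to Arg2 was 0.0064 to 0.236 in NC, 0.251 to 0.318 in COM-1 to COM-3, 22.8 to 32.0 in COM-4 to COM-6 and 7.02 to 11.0 in COM+Met. Arg2 mRNA therefore exceeded Nos2 mRNA in all NC samples and in COM-1 to COM-3, and the reverse held in COM-4 to COM-6 and COM+Met. Nos2 to Arg1 was 0.0739 to 1.68 in NC, 3.59 to 10.4 in COM-1 to COM-3 and 341 to 575 in COM-4 to COM-6. The ratio of Slc7a2 to Slc7a1 in COM+Met, 47.5 to 76.0, lay between those of NC and COM without overlap. Ass1 to Asl was 7.92 to 11.8 in COM+Met, below every COM sample and overlapping with NC.

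The genes whose pattern over the 18 samples was most like that of Nos2 were Tgtp2 (Pearson r = 0.9882), Gbp4 (0.9867), Tdrd7 (0.9867), P4ha1 (0.9859) and Trim30b (0.9859), out of 10750 genes. Within COM alone their r with Nos2 was 0.99 to 1.0, and within COM+Met, where Nos2 varied little, it was −0.1 to 0.88. Tgtp2 ran from 4.3 to 78.4 FPKM in COM, 0.0682 to 1.01 in NC and 31.8 to 35.2 in COM+Met. Tgtp2, Gbp4 and Trim30b belong to families of near-identical genes, so that reads may have been divided between copies. For Arg1 the closest were Loxl2 (0.9523), Ext1 (0.947), Timp3 (0.9377), Rbms1 (0.9305) and Fbln2 (0.9301), of which Timp3 and Fbln2 were, like Arg1, also listed at 0 in at least 1 COM+Met sample. Their r with Arg1 was 0.82 to 0.93 within NC but 0.23 to 0.74 within COM. Within COM+Met it was −0.41 to 0.23, but Arg1 was above 0 only in COM+Met-4 there, so these r rest on that sample alone. Among the 9 genes, r with Nos2 was 0.81 for Slc7a2, 0.71 for Gch1, 0.48 for Ass1, −0.19 for Slc7a1, −0.37 for Arg2, −0.59 for Odc1, −0.66 for Asl and −0.68 for Arg1. These are descriptions over samples that share groups and subsets, and they carry no p.

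**Figure D5:**
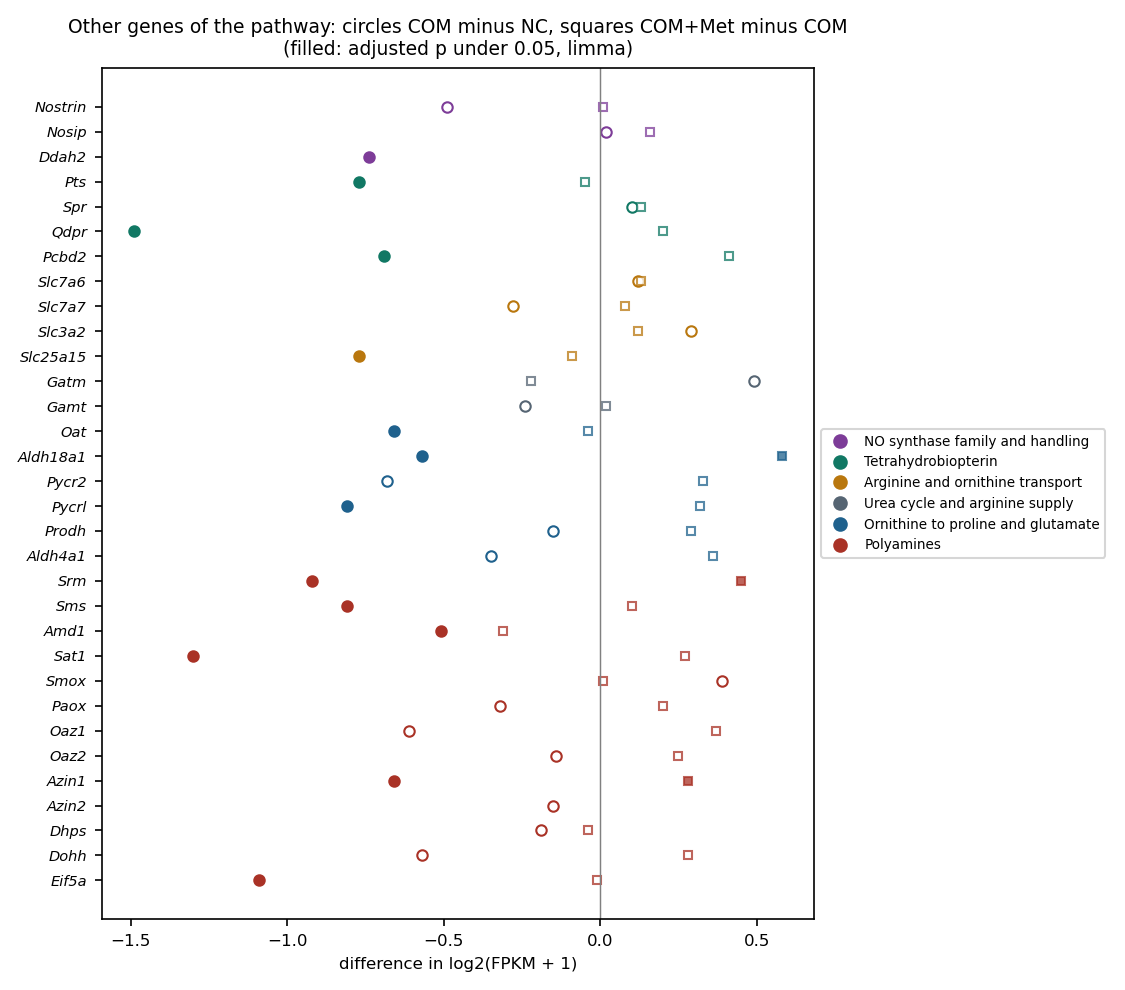
Differences in mean log2(FPKM + 1) of the other listed genes of the pathway that were tested in COM against NC (circles, 32 genes) and, where tested, in COM+Met against COM (squares, 30 genes), coloured by list and filled where the adjusted p was under 0.05. The 14 filled circles all lie left of 0, and the 3 filled squares (Aldh18a1, Srm and Azin1) right of it.

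Beyond the 9 genes, a list of 50 others of the pathway was examined, of which 47 were in the table. In COM against NC 32 were tested, and 0 passed as higher by limma (0 at an unadjusted p under 0.05), against 12.7% of all genes. As lower 14 passed, near the 40.6% of all genes, and 18 did not pass. The median difference was −0.54 beside −0.27 for all genes. By role, the lower genes were 3 of 4 tested in tetrahydrobiopterin synthesis and recycling, 6 of 13 in polyamine metabolism, 3 of 6 between ornithine, proline and glutamate, 1 of 4 in transport, 1 of 3 in nitric oxide handling and 0 of 2 in arginine supply. With so few genes in each role and 40.6% of all genes lower, these counts show nothing particular to a role. The lower gene in nitric oxide handling, like Arg1, reached the filter of 1 FPKM only through NC (mean 1.52 FPKM, 0.525 in COM). Qdpr, the reductase that recycles tetrahydrobiopterin, lay at 60.5 to 79.7 FPKM in NC and at 6.72 to 41.7 in COM (difference −1.49, adjusted p = 0.0032). Its mean was 68.3 FPKM in NC, 39.0 in COM-1 to COM-3 and 15.6 in COM-4 to COM-6, so the size of its difference depended on the COM subset.

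Among the polyamine genes, Sat1, which acetylates spermidine and spermine for export, lay at 161 to 211 FPKM in NC and 46.4 to 95.5 in COM (−1.30, adjusted p = 6.03e-05). Eif5a, the factor that carries the hypusine made from spermidine, lay at 377 to 509 FPKM in NC and 69.6 to 288 in COM (−1.09, adjusted p = 0.00846). Spermine synthase Sms (−0.81, adjusted p = 1.52e-05) and spermidine synthase Srm (−0.92, adjusted p = 0.000436) were lower as well. In COM+Met against COM 30 were tested, 3 passed as higher and 0 as lower by limma (1 as lower at an unadjusted p under 0.05), against 5.77% and 7.58% of all genes. The higher genes were Aldh18a1 (0.58, adjusted p = 0.0409), Srm (0.45, adjusted p = 0.0391) and Azin1 (0.28, adjusted p = 0.0402), an inhibitor of the antizymes that degrade ornithine decarboxylase. The median was 0.15 beside 0.003 for all genes. In COM+Met against NC 3 of 30 passed as higher, against 19.3% of all genes, and 16 as lower, near the 55.9% of all genes. The other nitric oxide synthases, Nos1 and Nos3, stayed below 1 FPKM, with Nos3 at most 0.219 FPKM. Of the urea cycle genes of the liver, Cps1 was listed at 0 in all samples and Otc did not exceed 0.0245 FPKM.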

How the data were processed

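Gene expression was measured by RNA-seq (TruSeq libraries) in 18 BMDM samples. The authors deposited FPKM values for 25926 genes. Bowtie 0.12.2, mm8 and mm9 stand in the submitters' processing notes without their roles. The program that computed FPKM was not given in the sources used here, nor was the read depth, so that no counting error could be given. Coordinates are of GRCm38 (GENCODE M21) and promoters of RefSeq's GRCm38.p6 table, not of the builds named.

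Each comparison used its own 12 samples and the genes that averaged 1 FPKM or more in them, tested on log2(FPKM + 1) with limma 3.58.1 (lmFit, eBayes with trend) in R 4.3.3. A gene passed at an adjusted p under 0.05 and was called with a change of at least 2-fold as well. Single genes were also compared by exact permutation tests. The procedure was tried on simulated data drawn gene by gene from a normal distribution. These held no subsets within a group, so they do not cover the splits seen in NC and COM. Plots were made with matplotlib 3.10.9 in Python 3.11.15 (numpy 2.4.6, pandas 2.3.3).

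Groups came from the sample labels. Named were the 9 genes, the genes of the pathway list that were called, and the 5 most correlated with Nos2 and with Arg1. Srm, Sms, Aldh18a1, Azin1 and the low Nos1, Nos3, Otc and Cps1 were outside this rule and, where named, were chosen after their values were seen. 1 gene of the pathway list is not reported here. The genes, lists and tests were chosen with earlier results of these data known. Alternatives were pseudocounts of 0.1 and 5, no filter and 5 FPKM, TPM, median-of-ratios, quantile normalisation, a replicate block, all 18 samples, sample weights, each sample left out, and the subsets of NC and COM.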

Additional observations from a re-analysis of the deposited data

Results flagged for a closer look

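Of 27 groups of 6 samples (9 genes in 3 groups), 1 held a sample far from the others by Dixon's criterion, which chance meets in about 1 of 20 groups. Arg1 was listed at 0.0438 FPKM in COM+Met-4 and at 0 in the 5 other COM+Met samples. With the others all at 0, any value above 0 meets the criterion, so the rate of 1 in 20 does not apply to this flag. COM+Met-4 was still below every COM and NC sample.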

How the results depend on the processing

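Of 598 alternative values of the 25 gene results, 541 kept their direction and side of the threshold, 32 no longer passed, 17 newly passed and 8 changed direction. The direction of Arg2 in COM against NC changed with NC-1 to NC-4 only (−0.0416) and COM-4 to COM-6 only (−0.35), in COM+Met against COM with COM-4 to COM-6 only (0.18), and in COM+Met against NC with median-of-ratios size factors (0.092) and quantile normalisation (0.0992). That of Asl in COM+Met against COM changed with sample weights (−0.14) and COM-1 to COM-3 only (−0.16), and that of Nos2 with COM-4 to COM-6 only (−1.42). Of the 8 genes tested in COM+Met against COM, 5 passed with sample weights, 6 with COM-1 to COM-3 only and 5 with COM-4 to COM-6 only, in place of 3. The COM subsets were chosen from the values, so the counts that rest on them are descriptions. Genes called in COM against NC fell from 1926 to 980 with a pseudocount of 5, and those in COM+Met against NC from 2078 to 1117. Those in COM+Met against COM, 230, became 370 with a pseudocount of 0.1, 90 with 5, 719 with sample weights and 771 with COM-1 to COM-3 only. With median-of-ratios size factors the calls of COM+Met against NC were 827 higher and 1003 lower, in place of 611 and 1467. The cause was not tested. Leaving out each sample in turn left 7 to 8, 2 to 3 and 5 to 7 genes that passed in COM against NC, COM+Met against COM and COM+Met against NC.

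Same-numbered samples did not deviate together (r of −0.22 to 0.06, 0 of 18 pairs over 0.1), so the numbers were not taken as pairs. A replicate block left 8, 3 and 6 of the genes that passed in these comparisons, where Slc7a1 in COM+Met against NC newly passed (0.17, adjusted p = 0.0328). The read depth is unknown, so the precision of low values such as Arg1 and the meaning of a listed 0 cannot be given.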
